A study of Homo sapiens with 9 samples.

Results

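The genes described here are 6 genes: Lilra6, Gdpd3, Nnt, Casp4, Ifi202b and Nlrp1b. The first 2 differ between tumors in C57BL/6 and B6129SF1 hosts. The other 4 are known to vary between C57BL/6 mice and other strains. The other parental strain of B6129SF1 hybrids was itself not a host here. All 6 were among the 17369 genes of the expression table and among the 10263 genes tested. Lilra6 and Gdpd3 were picked from the values of these tumors, so their difference between hosts is given as a description with no test. Nnt, Casp4, Ifi202b and Nlrp1b were picked because inbred strains carry known variants of them. RNA was sequenced from 9 orthotopic tumors, 3 in each of 3 groups. The original/B6129SF1 group held original TBP3743 cells in B6129SF1 mice, the adapted/B6129SF1 group held adapted TBP3743 cells in B6129SF1 mice, and the adapted/B6 group held adapted TBP3743 cells in C57BL/6 mice. TBP3743 is a murine anaplastic thyroid cancer line from B6129SF1 animals whose thyroid cells expressed Braf V600E and lacked Trp53, and the adapted cells came from round 3 of passage through C57BL/6 mice. Hosts were female and 6 weeks old, 100000 cells were injected into the thyroid, and tumors were taken after 14 days. The C57BL/6 and B6129SF1 mice came from different suppliers, so strain and supplier cannot be told apart. The labels give the organism as Homo sapiens, although the cells and hosts are mouse and reads were aligned to the mouse genome.

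B6129SF1 mice are first-generation hybrids of C57BL/6 and that other strain, so each cell of the host carries an allele from either parent. The tumor cells come from such hybrids in all 3 groups. With the same injected cells, a difference between hosts in a whole tumor can lie in the cells the host supplies or in the tumor cells, and these cannot be told apart in bulk RNA. The comparison of C57BL/6 hosts with both B6129SF1 groups together also holds a part of the difference between adapted and original cells, since one of those groups carried original cells, so values with the same cells are given beside it. Fewer cells of a type and less RNA per cell cannot be told apart either. The 6 genes have separate roles. Lilra6 belongs to the paired immunoglobulin-like receptors of myeloid cells. Gdpd3 encodes a lysophospholipase D that releases lysophosphatidic acid. Nnt encodes the mitochondrial transhydrogenase that makes NADPH. Casp4, also called caspase-11, senses cytosolic lipopolysaccharide. Ifi202b is an interferon-inducible member of the Ifi200 family, and Nlrp1b is an inflammasome sensor activated by proteolysis.

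Levels are FPKM, in which fragment numbers are divided by the length of the transcript and by library size, and the absolute depth is unknown because read counts were not used here. The sum of FPKM over genes lay between 457983 and 540514 in every tumor. Differences are between group means of log2(FPKM + 1), a scale that understates changes of weakly expressed genes, and adjusted p-values come from limma with Benjamini-Hochberg adjustment over all genes tested. A gene was called a DEG when the adjusted p was under 0.05 and the absolute log2 fold change above 1. Between the C57BL/6 hosts and the 2 B6129SF1 groups together, 0.487% of the genes tested were DEGs, 0.438% higher and 0.0487% lower, and 0.672% had an adjusted p under 0.05, 0.565% higher and 0.107% lower. The groups did not overlap for 1.93% of the genes tested with the C57BL/6 hosts higher, and for 1.98% with them lower. Between adapted/B6 and adapted/B6129SF1, which differ by label in the host alone, 0.0292% (3 genes) were DEGs, all lower. The tumors of 11.7% did not overlap, 6.32% higher and 5.42% lower. All these shares count Lilra6 and Gdpd3 among the genes tested. The smallest shares, such as 0.0292%, are therefore not independent of the genes described here and are no background for Lilra6 and Gdpd3. Between adapted/B6129SF1 and original/B6129SF1, which differ in the cells alone, 3.22% were DEGs, 2.36% higher and 0.857% lower, 4.37% were higher and 3.92% lower by the adjusted p, and the tumors of 29.6% did not overlap. Macrophage and monocyte markers summed to between 1238 and 2830 FPKM in all tumors and overlapped between the groups. B cell markers summed to at most 1.46 FPKM. Epithelial markers, set beside the labelled epithelial cell type, summed to at least 263.7 FPKM. That sum was almost all Krt8 and Krt18, while the other markers listed, Krt7 and Epcam, were at most 2.27 and 2.49 FPKM in any tumor. Skeletal muscle markers reached 17870 FPKM in 1 adapted/B6129SF1 tumor and 3547 FPKM in 1 adapted/B6 tumor. Each tumor is a separate animal by label.

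**Figure D1:**
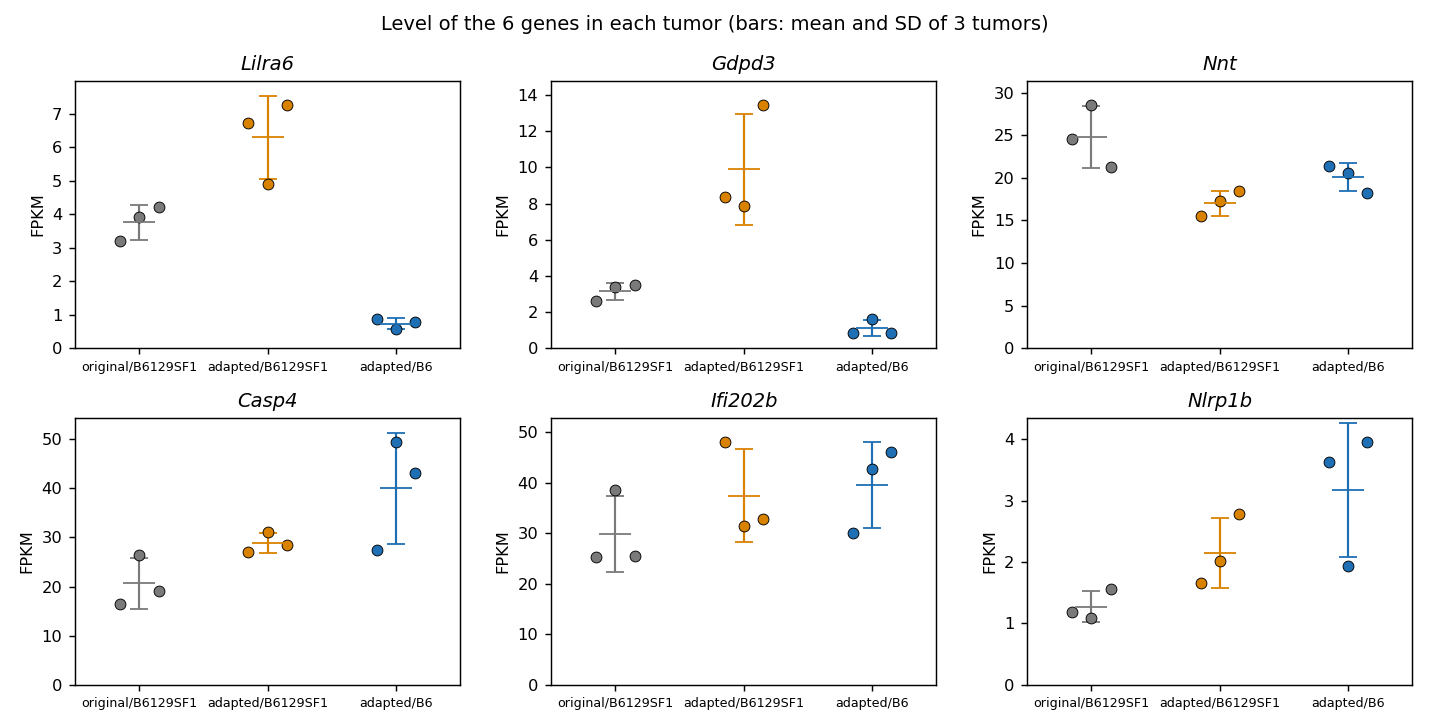
FPKM of the 6 genes in each tumor (points) by group, with the mean and SD of 3 tumors; the axes start at 0 and differ between genes. The 3 adapted/B6 tumors lie below all 6 tumors in B6129SF1 hosts for Lilra6 and Gdpd3, while for Nnt, Casp4, Ifi202b and Nlrp1b the hosts overlap.

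Lilra6 was low in every tumor grown in a C57BL/6 host. Its level was 3.19, 3.91 and 4.21 FPKM in the original/B6129SF1 tumors, 6.73, 4.91 and 7.26 FPKM in the adapted/B6129SF1 tumors, and 0.863, 0.564 and 0.777 FPKM in the adapted/B6 tumors. The 3 groups did not overlap, with the order adapted/B6129SF1, original/B6129SF1, adapted/B6 from high to low. Of all genes tested, 1.98% were lower without overlap between hosts and 5.42% with the same cells, and 13.6% were higher between the cells. The mean was 6.3 ± 1.23 FPKM (SD, n = 3) in adapted/B6129SF1 and 0.735 ± 0.154 FPKM in adapted/B6, an 8.58-fold difference between hosts with the same cells. Against original/B6129SF1, whose mean was 3.77 ± 0.524 FPKM, the difference was 5.13-fold. On the log2 scale Lilra6 differed by -1.76 (standard error 0.14) between the C57BL/6 and B6129SF1 hosts. Between the 2 cell types in the same host it differed by 0.61 (standard error 0.16), higher with adapted cells. Lilra6 was under 1 FPKM in all 3 adapted/B6 tumors and passed the filter on low values through the other 6.

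Lilra6 was set beside the other paired receptors and their adaptors, since these receptors are borne by the same myeloid cells. Of the 24 other genes listed, 9 had a row in the table and 6 were tested. Between hosts, 0 of the 6 were DEGs by limma, and 2 had an unadjusted p under 0.05, 1 higher and 1 lower, beside 13% of all genes tested. Pira2, a close relative of Lilra6 whose reads may be split between the copies, was 1.2, 1.73 and 2.23 FPKM in original/B6129SF1, 2.26, 1.83 and 2.4 FPKM in adapted/B6129SF1, and 0.709, 0.593 and 0.679 FPKM in adapted/B6. The adapted/B6 tumors were again below all other tumors, as for 1.98% of all genes tested. Pira2 also passed the filter on low values only through the tumors in B6129SF1 hosts. As reads may be shared with Lilra6, its values are not independent of a gene picked from these data. The Pira2 difference between hosts was -0.81 (standard error 0.15, adjusted p = 0.0548 from limma), above the threshold of 0.05. With the same cells it was -0.93 (adjusted p = 0.293 from limma). Fcer1g, the adaptor through which activating paired receptors signal, had the other sign, with 0.66 (adjusted p = 0.258 from limma). Tyrobp, another adaptor of myeloid receptors, differed by -0.13 with a 95% interval from -0.59 to 0.33. With the same cells Fcer1g differed by 0.45 (95% interval -0.14 to 1.03) and Tyrobp by -0.49 (95% interval -1.03 to 0.04). Tyrobp was at most 348.6 FPKM in adapted/B6 and at least 358.7 FPKM in adapted/B6129SF1. In that comparison 5.42% of all genes tested were lower without overlap. Lilra6 amounted to 0.0356% to 0.0455% of the summed macrophage and monocyte markers in the adapted/B6 tumors, 0.205% to 0.23% in original/B6129SF1 and 0.256% to 0.282% in adapted/B6129SF1. These shares are a description, as Lilra6 was picked from these values. The sum is mostly Lyz2, whose mean was 1281 FPKM in adapted/B6.

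**Figure D2:**
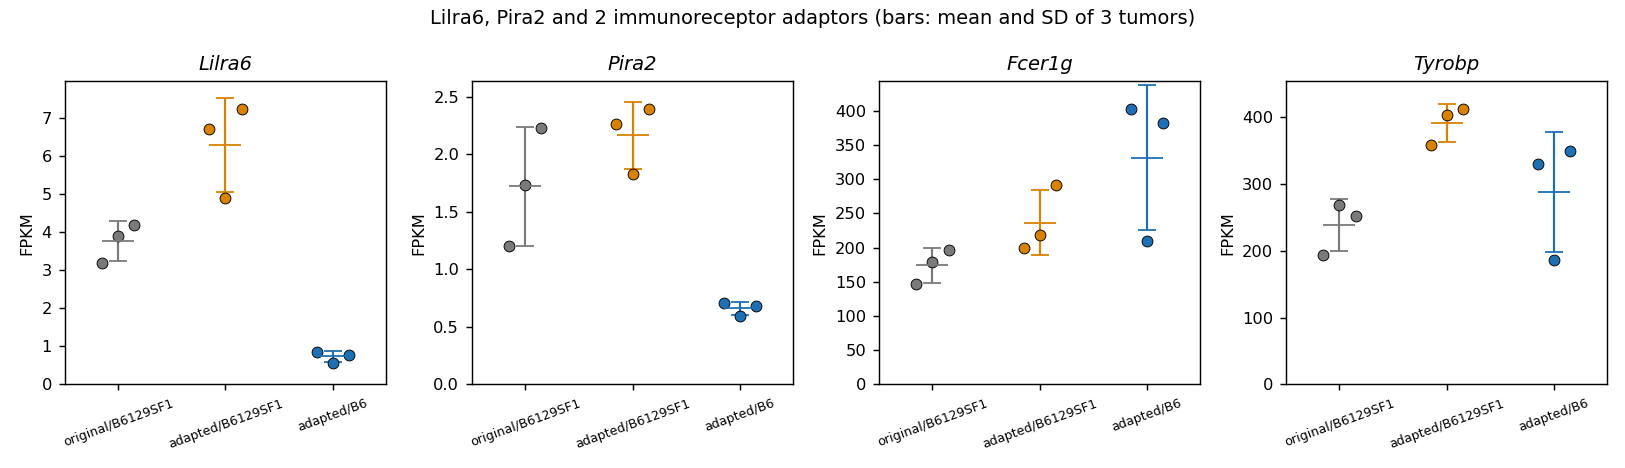
FPKM of Lilra6, Pira2, Fcer1g and Tyrobp in each tumor (points) by group, with the mean and SD of 3 tumors and axes from 0. Lilra6 and Pira2 are lowest in all 3 adapted/B6 tumors, while Fcer1g and Tyrobp in adapted/B6 reach 403 and 348.6 FPKM and overlap with another group.

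Gdpd3 showed the same order of groups with a wider spread. Its level was 2.62, 3.37 and 3.47 FPKM in the original/B6129SF1 tumors, 8.39, 7.86 and 13.4 FPKM in the adapted/B6129SF1 tumors, and 0.861, 1.63 and 0.821 FPKM in the adapted/B6 tumors. The groups did not overlap, and adapted/B6129SF1 replicate 3 was the highest tumor. Of all genes tested, 1.98% were lower without overlap between hosts and 5.42% with the same cells, and 13.6% were higher between the cells. Gdpd3 was under 1 FPKM in adapted/B6 replicates 1 and 3 and passed the filter on low values through the tumors in B6129SF1 hosts. The adapted/B6129SF1 mean of 9.89 ± 3.08 FPKM (SD, n = 3) was 8.96-fold that of adapted/B6, at 1.1 ± 0.455 FPKM, and 3.14-fold that of original/B6129SF1, at 3.15 ± 0.464 FPKM. The log2 difference was -1.68 (standard error 0.19) between hosts and 1.36 (standard error 0.22) between adapted/B6129SF1 and original/B6129SF1. The higher level with adapted cells was seen in B6129SF1 hosts, while the same cells in C57BL/6 hosts had 2.86-fold less Gdpd3 than original/B6129SF1. Adapted/B6129SF1 replicate 3 and adapted/B6 replicate 1 were the tumors with the most muscle transcripts, and without both of them the log2 difference between adapted/B6 and adapted/B6129SF1 was -2.06, against -2.36 with them.

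Of the 15 other genes listed for glycerophosphodiesterases and for N-acylethanolamine and lysophosphatidate metabolism, 11 were tested, and between hosts 0 were DEGs by limma, with 1 at an unadjusted p under 0.05, beside 13% of all genes tested. Gde1, the related enzyme GDE1, was 36.6 to 55.4 FPKM in original/B6129SF1, 33.8 to 41 FPKM in adapted/B6129SF1 and 34.9 to 39 FPKM in adapted/B6. The groups overlapped, and the difference between hosts was -0.14 (95% interval -0.43 to 0.15). Gdpd1 differed by -0.26 (95% interval -0.63 to 0.10). The list's median difference between hosts was 0.01, beside -0.01 over all genes tested. Between the cells, Naaa, which hydrolyses N-acylethanolamines, was a DEG in the adapted/B6129SF1 group (1.28, standard error 0.21, adjusted p = 0.0113 from limma), a call lost by a small margin without original/B6129SF1 replicate 3 (adjusted p = 0.0502).

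**Figure D3:**
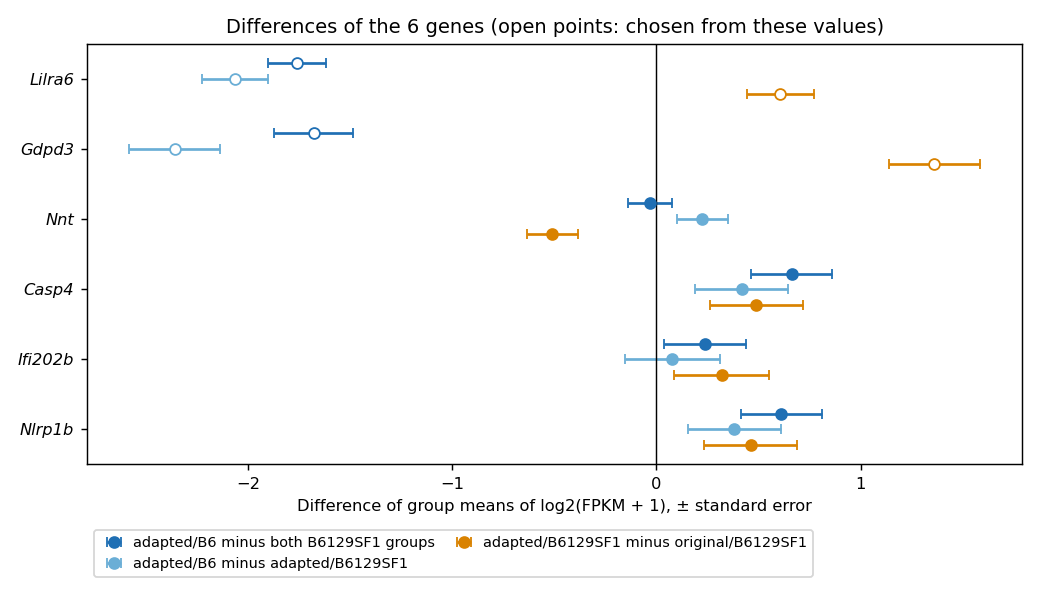
Differences of group means of log2(FPKM + 1) for the 6 genes, with standard errors, for the hosts, for the hosts with the same cells, and for the cells in the same host. Lilra6 and Gdpd3 (open points, chosen from these values) lie left of -1.5 between hosts and right of 0 between cells, and the other 4 genes lie within 1 of 0 in every comparison.

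The 4 genes chosen as known variants gave 0 DEGs between hosts by limma, and 2 of them, Casp4 and Nlrp1b, had an unadjusted p under 0.05, a level that 13% of all genes tested reached. With the same cells in both hosts 0 of the 4 had an unadjusted p under 0.05, a level reached by 6.27% of all genes tested. Their group differences were at most 1.85-fold between hosts, as the ratio of mean FPKM.

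Nnt did not separate the hosts. C57BL/6J mice are known to carry a deletion of several exons of this gene, but the labels do not give the substrain of the C57BL/6 hosts, and a value for the whole gene does not show which exons were read. Nnt was 24.6, 28.5 and 21.3 FPKM in the original/B6129SF1 tumors, 15.5, 17.2 and 18.4 FPKM in the adapted/B6129SF1 tumors, and 21.4, 20.6 and 18.2 FPKM in the adapted/B6 tumors. The adapted/B6 tumors lay between the other groups and overlapped with both. The difference between hosts was -0.03 (95% interval -0.28 to 0.21, adjusted p = 0.948 from limma), and 0.22 with the same cells (95% interval -0.06 to 0.51). The tumors of the 2 B6129SF1 groups did not overlap, with original/B6129SF1 1.46-fold above adapted/B6129SF1 (log2 difference -0.51, standard error 0.12, adjusted p = 0.0414 from limma). Among all genes tested 15.9% were lower without overlap in that comparison. The adjusted p was under 0.05, as for 8.28% of all genes tested, and Nnt was not a DEG because the change was less than 1 on the log2 scale. The adjusted p was between 0.0549 and 0.111 when any single tumor was left out.

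Other sources of mitochondrial NADPH were looked at beside Nnt. Of 17 genes listed, 14 were tested, and 1 was a DEG between hosts, beside 0.487% of all genes tested. At an unadjusted p under 0.05, 4 were higher and 1 lower, beside 13% of all genes tested. Aldh1l2, the mitochondrial formyltetrahydrofolate dehydrogenase that yields NADPH, was 2.81, 1.43 and 2.52 FPKM in original/B6129SF1, 2.13, 3.97 and 2.92 FPKM in adapted/B6129SF1, and 8.63, 7.05 and 13 FPKM in adapted/B6. The adapted/B6 tumors were above all others, as for 1.93% of all genes tested. The Aldh1l2 difference between hosts was 1.54 on the log2 scale (standard error 0.23, adjusted p = 0.0295 from limma). The call was lost without original/B6129SF1 replicate 2 or 3 (adjusted p = 0.0693 and 0.0888) and without adapted/B6 replicate 1, 2 or 3 (adjusted p = 0.0689, 0.0766 and 0.18). Against adapted/B6129SF1 alone the difference was 1.39 (adjusted p = 0.293 from limma). Idh2, the mitochondrial isocitrate dehydrogenase, differed between hosts by -0.04 (95% interval -0.31 to 0.23). Gsr, glutathione reductase, which uses NADPH, was lower with adapted cells in B6129SF1 hosts by the adjusted p, with a log2 difference of -0.68 (adjusted p = 0.0129 from limma).

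Casp4 was highest on average in the C57BL/6 hosts without a separation of the tumors. The other parental strain of B6129SF1 is known to carry an inactivating Casp4 allele. Casp4 was 16.5, 26.4 and 19.1 FPKM in the original/B6129SF1 tumors, 27, 31.1 and 28.5 FPKM in the adapted/B6129SF1 tumors, and 27.4, 49.4 and 43.2 FPKM in the adapted/B6 tumors. Of the adapted/B6 tumors, replicates 2 and 3 were above every tumor in a B6129SF1 host and replicate 1 lay among the adapted/B6129SF1 tumors. The difference between hosts was 0.66 (standard error 0.20, 95% interval 0.21 to 1.11, adjusted p = 0.205 from limma), and with each tumor left out it ranged from 0.49 without adapted/B6 replicate 2 (adjusted p = 0.496) to 0.91 without adapted/B6 replicate 1 (adjusted p = 0.0754). Over all alternatives the adjusted p from limma was between 0.0754 and 0.673. With the same cells the difference was 0.42 (95% interval -0.10 to 0.94), and between the cells in B6129SF1 hosts it was 0.49 (95% interval -0.03 to 1.01). The adapted/B6129SF1 tumors were all above the original/B6129SF1 tumors, as was the case for 13.6% of all genes tested.

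Nlrp1b had the lowest mean of the 6 genes over the 9 tumors, 2.2 FPKM, while in adapted/B6 its mean was above those of Lilra6 and Gdpd3. Its alleles differ between strains and set whether macrophages respond to anthrax lethal toxin. It was 1.18, 1.08 and 1.56 FPKM in the original/B6129SF1 tumors, 1.66, 2.02 and 2.78 FPKM in the adapted/B6129SF1 tumors, and 3.63, 1.93 and 3.96 FPKM in the adapted/B6 tumors. Here replicates 1 and 3 of adapted/B6 were above all other tumors and replicate 2 lay within the range of adapted/B6129SF1. The mean was 3.17 ± 1.09 FPKM in adapted/B6, 2.15 ± 0.571 in adapted/B6129SF1 and 1.28 ± 0.249 in original/B6129SF1 (SD, n = 3 each). The difference between hosts was 0.61 (95% interval 0.17 to 1.06, adjusted p = 0.241 from limma), and with the same cells it was 0.38 (95% interval -0.13 to 0.90). The adapted/B6 replicate with the lowest Nlrp1b also had the lowest Fcer1g of that group, 209.4 FPKM against 382 and 403 FPKM. Nlrp1b was also taken relative to the summed macrophage and monocyte markers, a scale chosen after the values were seen. On it Nlrp1b was 0.156% to 0.189% in adapted/B6, 0.068% to 0.116% in adapted/B6129SF1 and 0.0611% to 0.0851% in original/B6129SF1. The adapted/B6 tumors were above all others on this scale, but the share of all genes that would separate on it was not computed. The sum is mostly Lyz2, whose mean was 1281 FPKM in adapted/B6, 1824 FPKM in adapted/B6129SF1 and 1265 FPKM in original/B6129SF1. Of the 7 markers tested, Itgam (0.70) and Fcgr1 (0.58) were higher between hosts at an unadjusted p under 0.05 and 0 were lower, beside 13% of all genes tested. Nlrp1a, the paralog of Nlrp1b, averaged 0.698 FPKM in adapted/B6, 0.461 FPKM in adapted/B6129SF1 and 0.235 FPKM in original/B6129SF1 and was not tested. Dpp9, a protease that restrains Nlrp1b, differed between hosts by -0.01 (95% interval -0.24 to 0.22).

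Casp4 and Nlrp1b belong to the inflammasome and pyroptosis genes, of which 24 others were listed, 23 had a row and 18 were tested. Between hosts 0 of the 18 were DEGs by limma and 5 had an unadjusted p under 0.05, 4 higher and 1 lower, beside 13% of all genes tested. The median difference was 0.15, beside -0.01 over all genes tested. Casp1, the caspase that matures interleukin-1 beta, was 5.77 ± 0.492 FPKM in original/B6129SF1, 17.8 ± 4.33 in adapted/B6129SF1 and 19 ± 3.47 in adapted/B6 (SD, n = 3 each). It differed by 0.82 between hosts (adjusted p = 0.0627 from limma) but by 0.10 with the same cells (95% interval -0.32 to 0.51). Between the cells in B6129SF1 hosts Casp1 was a DEG, higher by 1.45 (adjusted p = 0.00512 from limma), and remained one in all 16 alternatives. Gsdmd, whose product forms the pyroptotic pore, was higher with adapted cells by 0.85 (adjusted p = 0.00284 from limma), short of the fold threshold. In that comparison 2 of the 18 genes were DEGs, Casp1 and the adaptor Pycard, both higher, beside 3.22% of all genes tested. The Pycard call was lost without original/B6129SF1 replicate 1 or 3 or adapted/B6129SF1 replicate 2 or 3 (adjusted p from 0.0623 to 0.0972). Casp4 was 289% to 419% of Casp1 in original/B6129SF1, 128% to 199% in adapted/B6129SF1 and 160% to 295% in adapted/B6. Il1b had a log2 difference of 1.09 between hosts (adjusted p = 0.295 from limma) and Il18 one of -0.51 (adjusted p = 0.345 from limma). With the same cells these were 1.56 and -0.69 (adjusted p = 0.602 and 0.718 from limma). Between the cells they were -0.95 and 0.37 (adjusted p = 0.23 and 0.361 from limma).

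Ifi202b had the highest mean of the 6 genes over the 9 tumors, 35.6 FPKM, and did not separate the groups. In adapted/B6 the mean of Casp4 was slightly higher, 40.0 against 39.5 FPKM. It is known to be nearly silent in C57BL/6 mice and expressed in the other parental strain. Its family holds near-identical copies, and how reads were divided among them is not given. Its level was 25.4, 38.6 and 25.6 FPKM in the original/B6129SF1 tumors, 48, 31.5 and 32.8 FPKM in the adapted/B6129SF1 tumors, and 29.9, 42.6 and 46.1 FPKM in the adapted/B6 tumors. Every group overlapped with every other, and no tumor in a C57BL/6 host was below the lowest tumor in a B6129SF1 host. The difference between hosts was 0.24 (95% interval -0.22 to 0.70, adjusted p = 0.69 from limma), and with the same cells it was 0.08 (95% interval -0.45 to 0.61, adjusted p = 0.969 from limma). The tumor cells of all groups descend from a line of hybrid animals, and which Ifi202b alleles they carried after passage is not given. The share of Ifi202b RNA that came from host cells was not measured.

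The other Ifi200 genes were set beside Ifi202b. Of 20 others listed, 5 had a row and all 5 were tested. Between hosts 0 were DEGs by limma and 3 had an unadjusted p under 0.05, all of these higher in adapted/B6, beside 13% of all genes tested. Ifi203 was 14 ± 2.04 FPKM in original/B6129SF1, 30 ± 1.48 in adapted/B6129SF1 and 36 ± 6.62 in adapted/B6 (SD, n = 3 each). It was higher in the C57BL/6 hosts by 0.77 (adjusted p = 0.0475 from limma), short of the fold threshold, and the adjusted p ranged from 0.0376 to 0.683 over the alternatives. With the same cells Ifi203 differed by 0.24 (95% interval -0.10 to 0.58). Between the cells, Ifi203 and Mndal were DEGs, higher with adapted cells by 1.05 and 1.08 (adjusted p = 0.00746 and 0.00967 from limma). Without original/B6129SF1 replicate 3 they were higher by 0.97 and 0.91 and no longer past the fold threshold. Ifi202b in the same comparison differed by 0.32 (95% interval -0.21 to 0.85). Ifi202b was 156% to 287% of Ifi203 in original/B6129SF1, 101% to 158% in adapted/B6129SF1 and 105% to 118% in adapted/B6.

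Casp4 and the Ifi200 genes are inducible by interferon, so interferon-response genes were set beside them. Of 11 such genes, all tested, 4 were DEGs between hosts, all higher in adapted/B6, beside 0.438% of all genes tested. Like the other lists, this one was chosen with earlier results of these data known, so its calls are a description. The median difference over the list was 1.02, and 7 had an unadjusted p under 0.05, beside 13% of all genes tested. Among the DEGs were Irf1, Gbp2 and Cxcl9, with differences of 1.12, 1.88 and 2.14 (adjusted p = 0.033, 0.0284 and 0.0475 from limma). The calls of these 3 genes were lost without original/B6129SF1 replicate 2 or 3 or adapted/B6 replicate 2 or 3 (adjusted p from 0.0555 to 0.275), those of Irf1 and Cxcl9 also without adapted/B6 replicate 1, and that of Cxcl9 also without original/B6129SF1 replicate 1 or adapted/B6129SF1 replicate 2. With the same cells in both hosts 0 of the 11 were DEGs by limma, 4 had an unadjusted p under 0.05, 3 higher and 1 lower, beside 6.27% of all genes tested, and the median was 0.35. The lower one was Ciita, the regulator of MHC class II genes, with -0.90 (adjusted p = 0.632 from limma). With the same cells Irf1, Gbp2 and Cxcl9 differed by 0.79, 0.99 and 0.79 (adjusted p = 0.538, 0.602 and 0.821 from limma). Their differences between the cells in B6129SF1 hosts were 0.68, 1.78 and 2.69 (adjusted p = 0.073, 0.0122 and 0.00933 from limma). Between the cells 5 of the 11 were DEGs, all higher with adapted cells, beside 2.36% of all genes tested. In that comparison all 5 T cell markers were higher at an unadjusted p under 0.05, 1 of them by the adjusted p from limma, and summed to 2.72 to 3.87 FPKM in original/B6129SF1, 4.61 to 21.9 FPKM in adapted/B6129SF1 and 14.4 to 22.2 FPKM in adapted/B6. The leukocyte markers Ptprc, Cd53 and Laptm5 summed to 106.4 to 137.4, 154.4 to 184.3 and 106.8 to 201.2 FPKM in the same order, and the epithelial markers to 573 to 965, 263.7 to 544 and 364 to 418 FPKM. The part of these cell types in the interferon-response values was not tested. The part of these genes in the values of Casp4, Nlrp1b and Ifi202b was not tested.

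**Figure D4:**
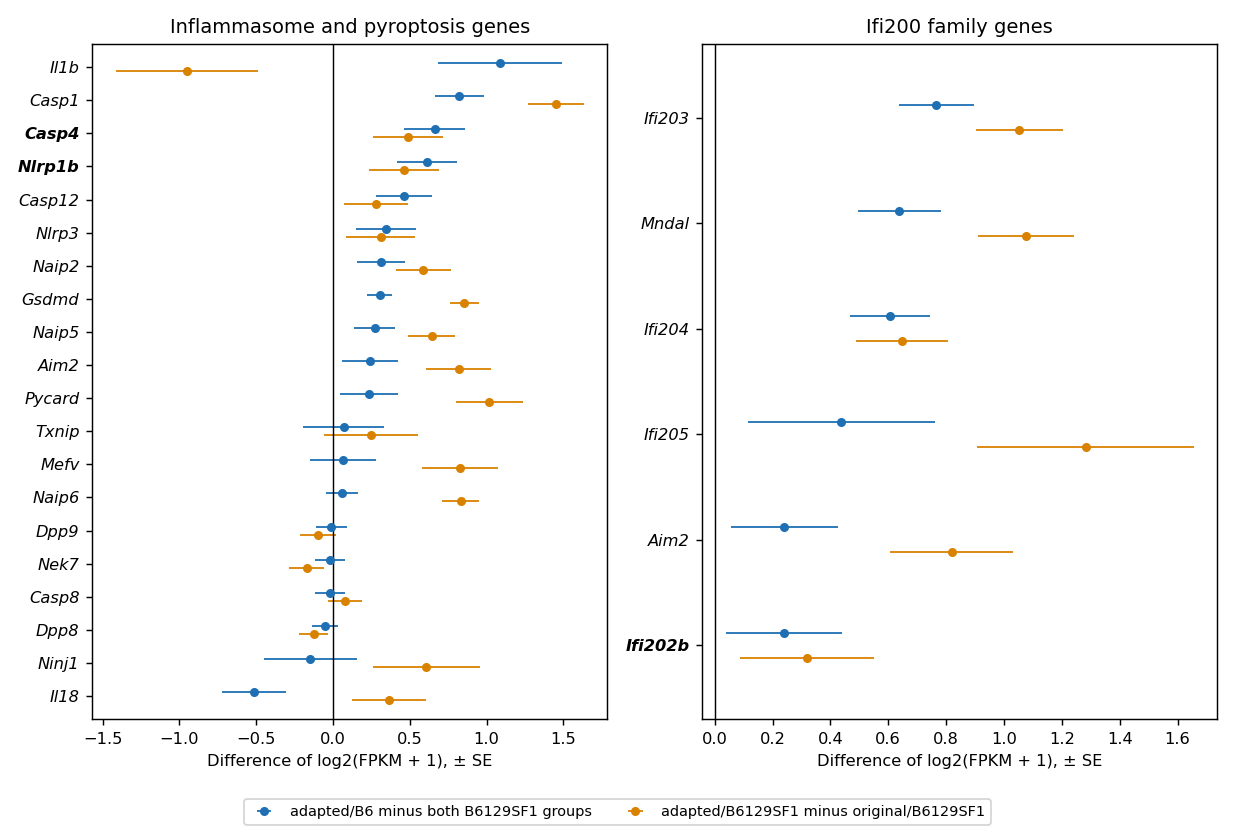
Differences of log2(FPKM + 1), with standard errors, between hosts (blue) and between cells in B6129SF1 hosts (orange), for the inflammasome and pyroptosis genes and the Ifi200 genes tested, with Casp4, Nlrp1b and Ifi202b in bold. Casp1 is at 0.82 between hosts and 1.45 between cells, and between hosts Ifi202b is at 0.24 and Ifi203 at 0.77.

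Another 10 genes with variants known between the parental strains were listed, of which 5 were tested. Between hosts 1 was a DEG, beside 0.487% of all genes tested. Tpsab1, a mast cell tryptase gene disrupted in C57BL/6 mice, was 5.04, 4 and 6.84 FPKM in original/B6129SF1, 6.46, 10.9 and 18.6 FPKM in adapted/B6129SF1, and 0.618, 0.841 and 0.439 FPKM in adapted/B6. All adapted/B6 tumors were below all others, as for 1.98% of all genes tested. Tpsab1 was under 1 FPKM in all 3 adapted/B6 tumors and passed the filter on low values through the tumors in B6129SF1 hosts. The list was chosen with earlier results of these data known, so its calls are a description. The Tpsab1 difference was -2.41 between hosts (adjusted p = 0.0227 from limma) and -2.89 with the same cells (adjusted p = 0.0364 from limma). The first call was lost without original/B6129SF1 replicate 2 or 3 or adapted/B6 replicate 2 or 3 (adjusted p = 0.0583, 0.0555, 0.0766 and 0.149). The second was lost when any tumor but adapted/B6129SF1 replicate 1 or 3 was left out (adjusted p up to 0.303). The mast cell markers, Cpa3, Kit, Ms4a2 and Tpsb2, summed to 6.06 to 10.6 FPKM in adapted/B6, 6.72 to 11.9 FPKM in original/B6129SF1 and 13.1 to 51.3 FPKM in adapted/B6129SF1, and their part in the Tpsab1 difference was not tested. The strain-variable lymphocyte receptor gene Ly9 differed between hosts by 0.17 (95% interval -0.35 to 0.69). Between the cells in B6129SF1 hosts Ly9 was a DEG, higher with adapted cells by 1.18 (adjusted p = 0.0311 from limma), beside 2.36% of all genes tested. Its adjusted p was under 0.05 in 6 of the 16 alternatives.

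**Figure D5:**
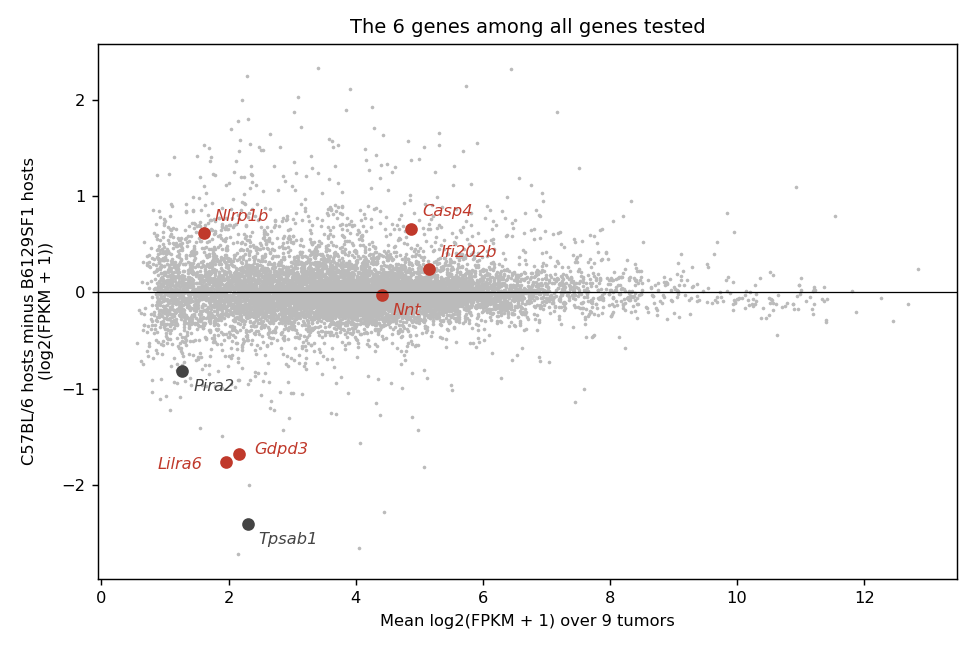
Difference between C57BL/6 and B6129SF1 hosts against mean log2(FPKM + 1) over 9 tumors for each gene tested (grey), with the 6 genes in red and Pira2 and Tpsab1 in dark grey. Lilra6 (-1.76), Gdpd3 (-1.68) and Tpsab1 (-2.41) lie at the lower edge, Casp4 (0.66) and Nlrp1b (0.61) lie at the upper side of the cloud, and Nnt (-0.03) and Ifi202b (0.24) lie within it.

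Over the 9 tumors, the genes whose log2 levels were most like those of each of the 6 genes were named as a description, since tumors of a group share a host and cells. For Lilra6 these were Pira2 (Pearson's r = 0.97), Hal (0.96) and Tpsab1 (0.95). Hal, the histidine ammonia-lyase gene, averaged 6.45 FPKM in original/B6129SF1, 9.49 in adapted/B6129SF1 and 0.256 in adapted/B6. Within the groups, as deviations from the group means, Lilra6 had r = 0.83 with Pira2, 0.78 with Hal and 0.15 with Tpsab1. For Gdpd3 they were Tpsab1 (r = 0.94), Depdc7 (0.93) and Lilra6 (0.92), and within the groups Gdpd3 had r = 0.68 with Tpsab1, 0.81 with Depdc7 and 0.36 with Lilra6. Nlrp1b was most like the myeloid genes Fcer1g (r = 0.97), Aoah (0.97) and Slamf7 (0.96). Casp4 was most like Lmo4 (r = 0.97), Psmg2 (0.96) and Car13 (0.94), Ifi202b like Cstb (0.97), Trmu (0.94) and Ccdc85b (0.94), and Nnt like Fsd1l (0.97), Tmem128 (0.96) and Zfp810 (0.95). Among the 6 genes, Casp4 and Ifi202b had r = 0.74, and Nnt had a negative r with each of the other 5, from -0.47 to -0.19.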

How the data were processed

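RNA of 9 tumors was sequenced as paired-end reads of about 100 nt. According to the study's methods and the submitters' processing notes, reads were checked with FastQC, aligned to mm10 with HISAT2 and quantified with Cuffnorm. The authors deposited gene-level FPKM, normalized together over the tumors; the annotation, the Cuffnorm scaling and any gene filter are not given in the sources used here.

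Groups came from sample titles. Values were taken as log2(FPKM + 1), genes reaching 1 FPKM in 3 or more tumors were fitted with limma 3.58.1 in R 4.3.3 (1 model of 3 groups, eBayes with trend), and contrasts were adapted/B6 minus the mean of both B6129SF1 groups, adapted/B6 minus adapted/B6129SF1, and adapted/B6129SF1 minus original/B6129SF1. The procedure was tested on simulated data. Members and gene lists were chosen with earlier results of these data known, the lists from general knowledge. Alternatives were another pseudocount, no filter, median scaling, other tumors in the fit, a replicate block, no variance trend, and tumors left out. Genes named are the members, list genes that were DEGs or had roles next to a member, markers, and per member the 3 genes with the highest correlation; chromosomal neighbours were also planned but need an annotation. The values of 1 list gene are not reported here. No member fell under the filter, so no single-gene permutation test was run. The precision is limited by 3 tumors per group. Coordinates and sequences are not given because no mouse annotation was used. At most 0.0487% of the genes tested had equal values in a pair of tumors.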

Additional observations from a re-analysis of the deposited data

How the results depend on the processing

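As a description, since both were picked from these values, the differences of Lilra6 and Gdpd3 between hosts with a pseudocount of 0.1 were -2.58 and -2.28, or -2.94 and -3.07 with the same cells. The 4 genes chosen as known variants gave no DEG in any contrast or alternative. The adjusted p between hosts ranged from 0.0754 to 0.673 for Casp4 and from 0.133 to 0.728 for Nlrp1b. The sign of 2 differences near 0 turned. With each tumor left out, Nnt between hosts ranged from -0.081 to 0.035 and was 0.021 without original/B6129SF1 replicate 2 and 0.035 without adapted/B6 replicate 3, and Ifi202b with the same cells ranged from -0.040 to 0.267 and was -0.030 without adapted/B6129SF1 replicate 2, -6.8e-04 without adapted/B6129SF1 replicate 3 and -0.040 without adapted/B6 replicate 3. Pira2 became a DEG between hosts with a pseudocount of 0.1 (-1.40, adjusted p = 0.0435 from limma).

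The counts of DEGs that serve as background were unstable. Between hosts there were 45 higher and 5 lower. There were 0 and 1 with no filter on low values, 0 and 0 with the tumors fitted as 2 groups by host, 0 and 0 under a block for the replicate number, and 13 lower without both muscle-rich tumors. With each tumor left out they ranged from 0 to 47 and from 0 to 8, with 0 higher without original/B6129SF1 replicate 2 or 3 or adapted/B6 replicate 2 or 3. With the same cells there were 3 lower, 1 with no filter, 0 with only these groups, 0 with the replicate block, and 0 to 6 with each tumor left out, and 0 to 1 higher. Between the cells, leaving out a tumor gave 104 to 276 higher, the fewest without original/B6129SF1 replicate 3, and 37 to 87 lower. The cause was not tested. Tumors that share a number come from different mice, and their deviations had mean correlations of -0.10, 0.16 and -0.01 over the 3 pairs of groups, so the block was not used for the main values.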
